A study of Homo sapiens with 10 samples.

Results

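The 8 genes described here encode the enzymes and carriers with which a liver cell makes glucose from smaller molecules and lets it out: PC, PCK1, PCK2, FBP1, SLC37A4, G6PC, G6PC3 and SLC2A2. They were chosen by gene name, and each name matched a single entry among the 32738 genes of the count table. Counts were sufficient to test 7 of the 8, as part of 12733 genes tested in all, and G6PC had too few. The cells were HepG2, an established human hepatoma line that is often used in place of hepatocytes. Control cells were kept for 17 h in their usual medium, which held 4.5 g/l glucose, 10% fetal bovine serum and penicillin-streptomycin. The tunicamycin cells had 2 µg/ml of tunicamycin in the same medium for the same time. Tunicamycin blocks N-linked glycosylation, so that unfolded proteins build up in the endoplasmic reticulum (ER), a state called ER stress. Both conditions used the same unedited line, and no other agent is named for either. There were 5 libraries per condition, with replicate numbers 1 to 5. The series' design text places the replicate experiments on separate days, so libraries with the same number were read as a pair.

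Gluconeogenesis runs glycolysis backwards, with its own enzymes at the steps that glycolysis cannot reverse. Pyruvate carboxylase (PC) turns pyruvate into oxaloacetate in mitochondria, and phosphoenolpyruvate carboxykinase turns oxaloacetate into phosphoenolpyruvate, either in the cytosol (PCK1) or in mitochondria (PCK2). Fructose-1,6-bisphosphatase (FBP1) removes a phosphate further along the path. The last step lies in the ER, the organelle that tunicamycin disturbs: SLC37A4 carries glucose-6-phosphate into it, and the catalytic subunits G6PC (liver and kidney) or G6PC3 (most tissues) split off the phosphate. Glucose then leaves hepatocytes through the transporter SLC2A2, also called GLUT2. In liver, PCK1 and G6PC are best known for induction by glucagon and fasting and repression by insulin.

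With tunicamycin, PCK2 rose 1.72-fold, while SLC2A2 fell 1.85-fold and SLC37A4 fell 1.57-fold. PC, PCK1, FBP1 and G6PC3 did not pass the test, and the liver-type genes PCK1, FBP1 and G6PC were at or close to 0 counts in every library of both conditions. So 3 of 7 tested genes passed edgeR's quasi-likelihood test at a Benjamini-Hochberg adjusted p under 0.05, 1 higher and 2 lower. Of all 12733 genes tested, 34.2% passed, 17.6% higher and 16.6% lower, so that the share of these 7 genes (42.9%) lay near that of the whole table. The same number, 3, passed under each of 17 alternative settings. RNA was measured in bulk, so fewer cells expressing a gene and less of its RNA in each cell cannot be told apart.

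The libraries were made by the QuantSeq method, which reads the 3′ end of each mRNA, and the authors deposited raw counts per gene. A 3′ method gives about 1 fragment for each transcript whatever its length, so levels of different genes were compared without a length correction. Levels cover only reads that the authors' counting assigned to a gene. Whether the share of reads assigned differed between genes was not tested. Below, a normalized count is a count divided by its library's total after TMM scaling (a correction for composition) and multiplied by the mean scaled total. Control libraries held 4242538 to 4888292 counts and tunicamycin libraries 2234682 (replicate 5) to 5029864. Treatment showed in the ER stress genes HSPA5, an ER chaperone (8445 to 66202 normalized counts on average), DNAJB9 and HERPUD1, as 9 of 10 listed ER stress genes were higher. The tenth, the transcription factor gene XBP1, was lower (686 to 343 normalized counts on average). All 9 listed hepatocyte and hepatoma markers were found in every library. Their summed level was 65293 to 84033 normalized counts in control and 52238 to 58674 in tunicamycin, without overlap. APOB was the largest part of the sum, at 32551 on average in control and 18979 in tunicamycin. Of the 9 markers, 5 (APOA1, APOB, TTR, TF and FGB) were called lower and 0 higher, while ALB, AFP, SERPINA1 and HNF4A were not called. The fall of the sum ran beside the decreases of SLC2A2 and SLC37A4, and its part in them was not tested. Of other cell types, PTPRC and CD3E (blood cells), KDR (endothelium), COL1A2 and DCN (fibroblasts) and SI (intestine) had 0 counts in every library. The remaining markers of 5 lists of other cell types, among them LYZ with 1009 to 1800 counts per library, gave summed levels that overlapped between conditions in 4 lists, although CD68 of the immune list was called lower (27.8 to 15.6 normalized counts on average). In the fifth, of kidney tubule and intestine, VIL1 was called lower and carried a sum of 658 to 795 in control and 481 to 539 in tunicamycin.

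Sequences from within 250 bases before a transcription start are printed for 4 of the genes, the 3 that changed and G6PC, which had next to no counts. They come from RefSeq on GRCh38.p14, where windows of 250 bases before a start were found for 7 of the 8 genes and not for PCK1. They are given 5′ to 3′ on the strand of the gene, without bases annotated as untranslated, and capitals mark motifs that were searched on both strands.
PCK2, chr14:24094069-24094149, plus strand, 242 to 162 bases before the start: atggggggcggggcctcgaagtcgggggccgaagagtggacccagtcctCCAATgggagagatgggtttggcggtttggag
SLC37A4, chr11:119030907-119031127, minus strand, 250 to 30 bases before the start: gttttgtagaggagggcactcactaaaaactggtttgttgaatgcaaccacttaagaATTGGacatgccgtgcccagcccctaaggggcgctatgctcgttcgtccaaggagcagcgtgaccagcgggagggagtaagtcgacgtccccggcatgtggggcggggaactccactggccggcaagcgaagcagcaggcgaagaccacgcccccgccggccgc
SLC2A2, chr3:171026744-171026970, minus strand, 250 to 24 bases before the start: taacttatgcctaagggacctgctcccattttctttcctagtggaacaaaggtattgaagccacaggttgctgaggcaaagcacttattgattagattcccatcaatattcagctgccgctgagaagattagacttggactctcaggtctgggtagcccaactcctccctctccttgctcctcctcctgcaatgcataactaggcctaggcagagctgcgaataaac
G6PC, chr17:42900549-42900796, plus strand, 250 to 3 bases before the start: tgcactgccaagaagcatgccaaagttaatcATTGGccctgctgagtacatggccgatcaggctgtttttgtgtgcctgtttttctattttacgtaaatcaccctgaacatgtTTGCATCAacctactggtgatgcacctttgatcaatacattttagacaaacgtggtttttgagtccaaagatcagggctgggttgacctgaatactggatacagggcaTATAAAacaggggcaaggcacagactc
The capitals in PCK2 and the first in SLC37A4 and G6PC are CCAAT boxes (CCAAT, or ATTGG on the other strand), a general promoter motif that 32.04% of 34943 promoter windows hold. G6PC also has a TATA box (TATAAA, in 10.8% of windows) from 29 to 24 bases before its start. SLC37A4 has one from 30 to 25 bases before another start, which lies inside the annotated gene and whose window is not printed. Between 137 and 130 bases before the start of G6PC lies TTGCATCA, which on the other strand fits TGATGNAA, a form of the C/EBP-ATF element that ATF4 can bind (in 3.15% of windows). No window of the other matched genes held this form, and the windows of SLC2A2 and FBP1 held none of the 6 motifs searched. The others were TGACGTCA (the cyclic AMP element, in 1.63%), TGANTCA (a looser form of the AP-1 site, in 6.59%) and CACGTG (the E-box, in 6.32%). TGANTCA was found before 1 of 3 starts of PC, as TGATTCA. The AP-1 consensus given in the paper allows only G or C at the base written N, so this match falls outside it. The share of windows with that consensus alone was not counted. CACGTG was found before starts of G6PC3, but at bases inside the annotated gene that are marked as untranslated. TGACGTCA was found before none of the matched genes. These absences concern the windows only. The PCK2 window (chr14:24094061-24094310) lay wholly inside the annotated gene, with 169 of its 250 bases annotated as untranslated. The FBP1 window (chr9:94639519-94639768) also lay inside its annotated gene. Sequence before the annotated 5′ ends of PCK2 and FBP1 was not searched.

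PC, which supplies the pathway with oxaloacetate, lies at chr11:66848417-66958386 on the minus strand and has 23 exons (GRCh38, GENCODE). Its normalized counts in control replicates 1 to 5 were 39.6, 34.8, 28.9, 37.6 and 40.7. In tunicamycin replicates 1 to 5 they were 23.6, 23.8, 26.4, 28.8 and 38.3. Tunicamycin was lower in each of 5 pairs, by a log2 ratio of -0.73 to -0.08, but the groups overlapped, since tunicamycin replicate 5 stood among the controls. The mean went from 36.3 ± 4.72 to 28.2 ± 6.05 (SD, n = 5 each). The log2 fold change of -0.40 (SE 0.20, 95% interval -0.82 to 0.02) did not pass, with an adjusted p of 0.129 by edgeR's quasi-likelihood test and p = 0.0556 in an exact two-sided permutation test. The counts behind these values were 19 to 46 per library, which limits their precision. Exons of LRFN4 overlap PC on the other strand, away from the last 500 bases of its transcript.

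PCK2, the mitochondrial carboxykinase, was the member that rose. It lies at chr14:24094053-24110598 on the plus strand, with 10 exons. In control replicates 1 to 5 it had 250, 296, 297, 271 and 267 normalized counts. In tunicamycin replicates 1 to 5 it had 459, 456, 513, 468 and 480. The lowest tunicamycin library was above the highest control library, and every pair rose, by a log2 ratio of 0.62 to 0.87. The mean went from 276 ± 19.9 to 476 ± 22.9 (SD, n = 5 each), which gave a log2 fold change of 0.78 (SE 0.09, 95% interval 0.60 to 0.96), with an adjusted p of 1.1e-06 by edgeR's quasi-likelihood test. As a fold this was 1.72, with an interval of 1.52 to 1.95. An exact two-sided permutation test gave p = 0.00794, the smallest that 5 against 5 libraries can give. The rise exceeded the log2 fold change of 90.3% of tested genes, and it held at 0.70 to 0.87 across the 17 alternatives.

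PCK1, the cytosolic carboxykinase and the hormone-controlled form of liver, lies at chr20:57561080-57568121 on the plus strand, with 10 exons. Its raw counts were 4, 1, 2, 2 and 1 in control replicates 1 to 5. They were 1, 3, 4, 3 and 1 in tunicamycin replicates 1 to 5. These amount to 10 counts in all control libraries together, a CPM (count scaled to the library total) of 0.427 (exact Poisson 95% interval 0.205 to 0.785), and 12 in all tunicamycin libraries, a CPM of 0.60 (0.310 to 1.05). The log2 fold change of 0.55 (SE 0.65, 95% interval -0.80 to 1.91) did not pass edgeR's quasi-likelihood test (adjusted p = 0.544), and the interval is wide because the counts are few. Without control replicate 1 the log2 fold change was 0.92, and without tunicamycin replicate 1 it was 0.84, neither of them called. PCK2 therefore made up nearly all counts of the pair: 1527 of 1537, or 99.3% (exact binomial 95% interval 98.8% to 99.7%), in control and 2126 of 2138, or 99.4% (99.0% to 99.7%), in tunicamycin. These intervals and those of CPM cover counting error only.

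FBP1, the bisphosphatase, lies at chr9:94603133-94640249 on the minus strand, with 7 exons. Its raw counts were 5, 4, 2, 5 and 0 in control and 4, 1, 4, 1 and 5 in tunicamycin, replicates 1 to 5 in order. The sums were 16 and 15 counts, a CPM of 0.683 (exact Poisson 95% interval 0.390 to 1.11) and 0.750 (0.420 to 1.24). The groups overlapped over almost their whole range. The log2 fold change was 0.25 (SE 0.69, 95% interval -1.20 to 1.70), with an adjusted p of 0.811 by edgeR's quasi-likelihood test, and its sign rested on the replicates numbered 5. Without tunicamycin replicate 5, the smallest library, it was -0.20, and without control replicate 5, which had 0 counts, it was -0.03. The last 500 bases of FBP1 overlap exons of the noncoding gene PCAT7 on the other strand, and whether counting used the strand is not given in the sources used here.

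SLC37A4, which moves glucose-6-phosphate into the ER, lies at chr11:119023751-119030906 on the minus strand, with 10 exons. Control replicates 1 to 5 had 444, 334, 353, 404 and 370 normalized counts. Tunicamycin replicates 1 to 5 had 253, 208, 228, 279 and 250. All tunicamycin libraries lay below all control libraries, and each pair fell, by a log2 ratio of -0.81 to -0.53. The mean went from 381 ± 43.6 to 244 ± 26.8 (SD, n = 5 each), which gave a log2 fold change of -0.65 (SE 0.11, 95% interval -0.87 to -0.43), with an adjusted p of 9.0e-05 by edgeR's quasi-likelihood test. That is 1.57-fold lower, with an interval of 1.35 to 1.83. The exact permutation test gave p = 0.00794, and the alternatives ran from -0.74 to -0.55. Exons of TRAPPC4 overlap SLC37A4 on the other strand, outside its last 500 bases, and TRAPPC4 itself had a log2 fold change of 0.15 with an adjusted p of 0.265 in the same edgeR test.

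G6PC, the liver and kidney glucose-6-phosphatase, lies at chr17:42900797-42914438 on the plus strand, with 5 exons. It had 0 counts in all 5 control libraries, which allows up to 0.128 CPM of the control total (a limit of 3 counts, one-sided). Among tunicamycin libraries, replicate 2 had 2 counts and the others 0. Both groups were at or under the limit of 3 counts, so no fold is given. A count of 0 concerns reads that the authors' counting assigned to the gene. Whether reads fell beyond its annotated 3′ end was not tested.

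G6PC3, the widely expressed glucose-6-phosphatase, supplied the counts of this step. It lies at chr17:44070620-44082151 on the plus strand, with 6 exons. Control replicates 1 to 5 had 343, 392.4, 368, 330 and 371 normalized counts. Tunicamycin replicates 1 to 5 had 405, 317, 418, 423 and 351. The groups overlapped, with tunicamycin higher in 3 of 5 pairs. The mean was 361 ± 24.6 in control and 383 ± 46.7 in tunicamycin (SD, n = 5 each). The log2 fold change was 0.09 (SE 0.10, 95% interval -0.12 to 0.29), with an adjusted p of 0.528 by edgeR's quasi-likelihood test, so the interval leaves room for a small change in either direction. G6PC3 held 1993 of 1993 counts of the pair G6PC3 and G6PC in control (exact binomial 95% interval 99.8% to 100%) and 1723 of 1725, or 99.9% (99.6% to 100%), in tunicamycin. Exons of HDAC5 overlap it on the other strand, outside the last 500 bases.

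SLC2A2, the glucose transporter of the hepatocyte surface, fell most of the 7 tested genes. It lies at chr3:170996347-171026743 on the minus strand, with 11 exons. Control replicates 1 to 5 had 758, 820, 827, 787 and 812 normalized counts, close to one another. Tunicamycin replicates 1 to 5 had 454, 483, 450, 411 and 353. The groups were far apart, and each pair fell, by a log2 ratio of -1.20 to -0.74. The mean went from 801 ± 28.3 to 430 ± 50.2 (SD, n = 5 each), which gave a log2 fold change of -0.89 (SE 0.09, 95% interval -1.08 to -0.70), with an adjusted p of 3.7e-07 by edgeR's quasi-likelihood test. That is 1.85-fold lower, with an interval of 1.63 to 2.11. The exact permutation test gave p = 0.00794, and the alternatives ran from -0.97 to -0.83. Of all tested genes, 6.68% had a lower log2 fold change.

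The order of the levels changed with treatment. In control, SLC2A2 had the highest level, above SLC37A4 in 5 of 5 libraries. SLC37A4 and G6PC3 followed and overlapped with each other, then came PCK2 and, far lower, PC, each apart from its neighbours. FBP1 and PCK1 overlapped near the bottom, and G6PC was last at 0. In tunicamycin, PCK2 stood first on average, above SLC2A2 in 4 of 5 libraries, with overlapping ranges, and SLC2A2 in turn overlapped with G6PC3. SLC37A4 had moved below these 3 without overlap, and PC followed. FBP1, PCK1 and G6PC did not separate from one another. Summed over the 8 genes, the level was 1860 ± 20.5 normalized counts in control and 1567 ± 72.5 in tunicamycin (SD, n = 5 each), with ranges of 1835 to 1882 and 1485 to 1642. SLC2A2 was the largest part in control, at 801 on average, and fell to 430, while PCK2 rose from 276 to 476. The sum therefore does not describe a shared change of the genes.

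**Figure D1:**
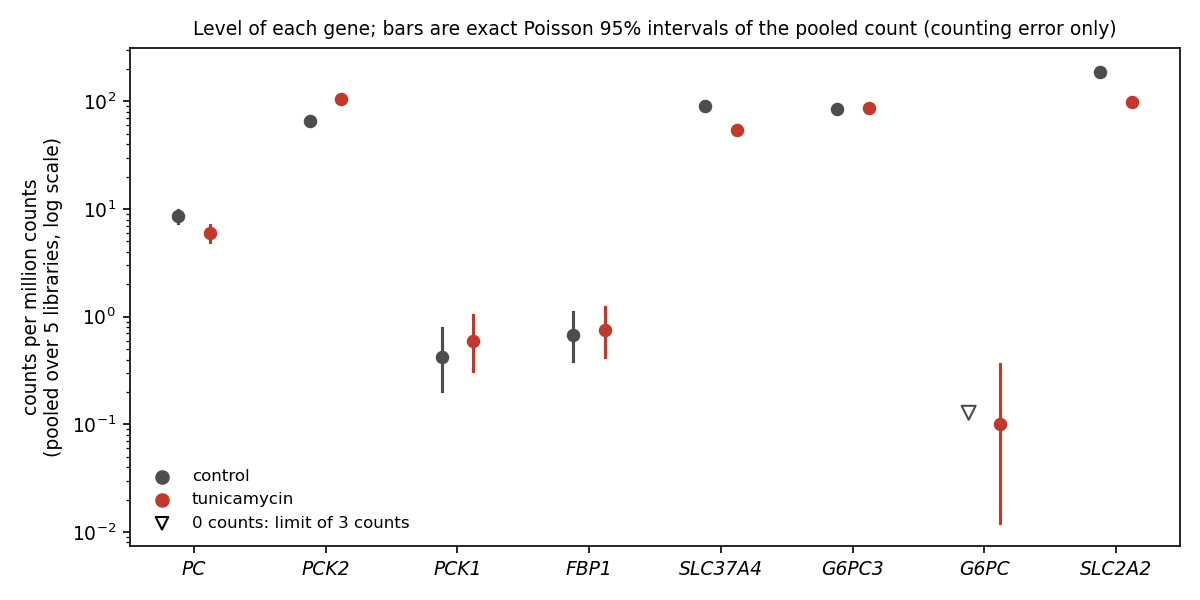
Level of each gene in CPM, pooled over the 5 libraries of a condition (vertical axis, log scale), with exact Poisson 95% intervals of the pooled count as bars and a triangle at the limit of 3 counts where the count was 0. PCK2, SLC37A4, G6PC3 and SLC2A2 lie between 53.8 and 189 CPM, PC between 6.0 and 8.53, and PCK1, FBP1 and G6PC below 1.

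Ratios within a library, which do not depend on library scaling, were used to ask whether genes of adjoining steps changed unequally. The log2 ratio of PCK2 to PC went from 2.92 ± 0.29 to 4.07 ± 0.28 (SD, n = 5 each), with control at 2.65 to 3.34 and tunicamycin at 3.61 to 4.26. The difference of 1.15 had p = 0.00794 in an exact two-sided permutation test, or 0.0238 after Benjamini-Hochberg adjustment over 3 ratios, and it was positive in 5 of 5 pairs. Tested within pairs by exact sign flips, the p was 0.0625, the smallest that 5 pairs allow, so the paired test could not pass. The log2 ratio of PCK2 to PCK1 differed by 0.22 (exact permutation p = 0.643, adjusted 0.643), and its sign turned without control replicate 1 (-0.04) or without tunicamycin replicate 1 (-0.08). For G6PC3 to G6PC the difference was -0.75 (exact permutation p = 0.254, adjusted 0.381), a value set by the pseudocount of 0.5, since G6PC was at 0 in 9 of 10 libraries. It was -0.28 without tunicamycin replicate 2, which held the only G6PC counts, and -1.17 with a pseudocount of 0.1.

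**Figure D2:**
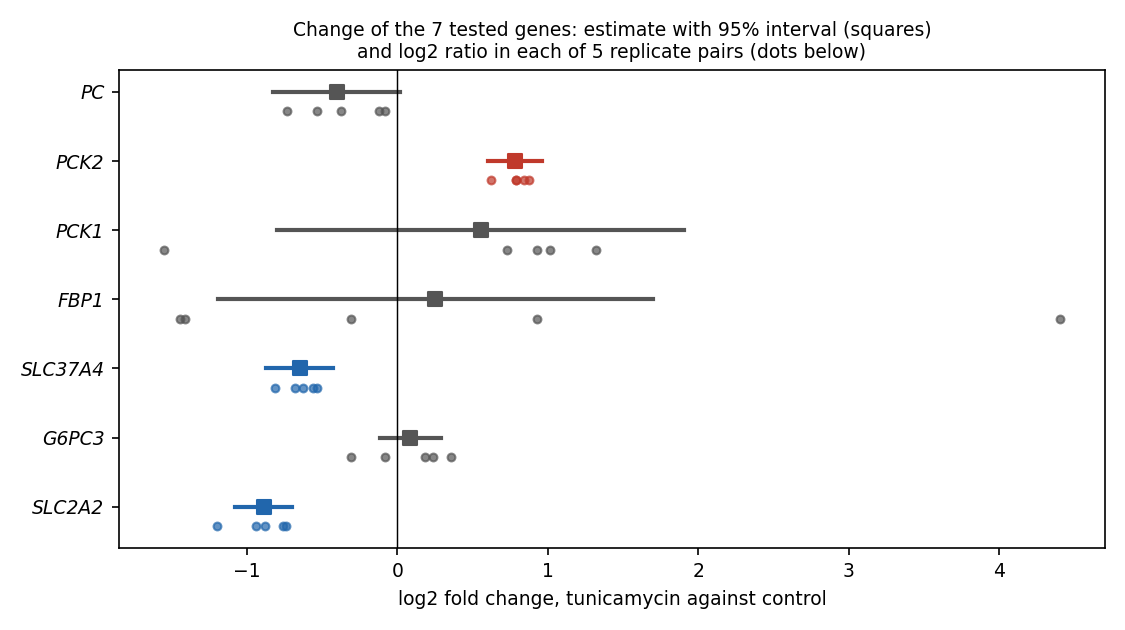
Log2 fold change of the 7 tested genes (horizontal axis, tunicamycin against control), with squares and bars for the edgeR estimate and its 95% interval and dots below for the log2 ratio of each of 5 replicate pairs; red was called higher, blue lower and grey neither. PCK2 (0.78), SLC37A4 (-0.65) and SLC2A2 (-0.89) have narrow intervals away from 0, while those of PCK1 (-0.80 to 1.91) and FBP1 (-1.20 to 1.70) are wide.

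The genes whose log2 CPM over the 10 libraries most resembled those of PCK2, among 9706 genes whose average reached 20 normalized counts, were GMPPA (Pearson's r = 0.994), which takes part in GDP-mannose metabolism, SLC33A1 (0.988), the acetyl-CoA carrier of the ER membrane, and CCPG1 (0.987), a receptor for selective autophagy of the ER. For SLC2A2 they were GTSE1 (0.991), a protein of G2 and S phase, SQLE (0.990), squalene epoxidase of sterol synthesis, and LRG1 (0.988), a secreted glycoprotein. These values are descriptions over libraries that fall into 2 conditions, and the points of a condition share that treatment.

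The other genes of the pathway were read from fixed lists, as counts beside the 34.2% of all genes called and the median log2 fold change over all genes of -0.003. Adjusted p-values here are from edgeR's quasi-likelihood test. Of the enzymes that glycolysis and gluconeogenesis share, 10 of 12 were tested, 0 were higher and 4 lower, with a median of -0.23. The aldolase ALDOC went from 84.6 ± 9.59 to 32.7 ± 4.83 normalized counts (log2 fold change -1.38, adjusted p = 1.8e-06). The enolase ENO3 (-0.59) and the triose phosphate isomerase TPI1 (-0.32) were lower too, although neither passed after counts were thinned to the smallest library. ENO2 (-0.41), another enolase, was the fourth and was picked after its values were seen.

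Among genes that bring carbon to the pathway, 20 of 27 were tested, with 5 higher (3 without control replicate 5 or tunicamycin replicate 3), 4 lower and a median of -0.01. GOT1, the cytosolic aspartate aminotransferase, rose from 417 ± 36.1 to 863 ± 55.9 normalized counts (log2 fold change 1.05, adjusted p = 2.7e-08), and GK, glycerol kinase, from 44.7 ± 16.0 to 111 ± 34.2 (1.27, adjusted p = 0.000505). GPD1, the cytosolic glycerol-3-phosphate dehydrogenase, was higher by 0.30, a call lost under 8 of 17 alternatives. These include leaving out control replicate 3, 4 or 5 or tunicamycin replicate 1, 2 or 3, with adjusted p-values up to 0.0938. Lower were MPC1 (-0.49), part of the mitochondrial pyruvate carrier, SLC25A11 (-0.65), which exchanges malate for oxoglutarate across the inner membrane, and TKFC (-0.66), the triokinase of fructose breakdown. The other 3 called genes were picked after their values were seen: the malate dehydrogenases MDH2 (0.23) and MDH1 (-0.21), and AQP3, a channel for glycerol. AQP3 had 0, 0, 0, 3 and 1 counts in control and 3, 20, 19, 24 and 9 in tunicamycin, so that its fitted log2 fold change of 4.39 rests on 4 control counts.

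A list of enzymes of the glycolytic and pyruvate steps opposite to gluconeogenesis, which also holds genes that restrain those steps, gave 6 higher and 1 lower among 19 tested of 25, with a median of 0.10. HKDC1, a hexokinase-like enzyme, rose from 330 ± 83.1 to 855 ± 59.3 normalized counts (log2 fold change 1.38, adjusted p = 3.7e-07), HK2 rose by 0.78 (adjusted p = 0.00225), and TIGAR, which degrades fructose-2,6-bisphosphate, by 1.31 (adjusted p = 0.00219). PDHB (0.56), a subunit of pyruvate dehydrogenase, and PDK1 (0.46), a kinase that inhibits that enzyme, were also higher. So was GCKR (0.50), the regulatory protein that inhibits glucokinase. PDHB, PDK1 and GCKR were picked after their values were seen. Like PDK1 and GCKR, TIGAR restrains rather than drives its step. The lower gene, picked after its values were seen, was the pyruvate kinase PKM (-0.30), and the count of lower genes became 0 without control replicate 1, 2, 4 or 5 or tunicamycin replicate 2, 3 or 5, and 3 without control replicate 3. Among paralogues of the 8 genes, 12 of 18 were tested, with 2 higher (1 without tunicamycin replicate 3), 2 lower and a median of -0.02. Beside the fall of SLC2A2, the widely expressed glucose transporter SLC2A1 rose from 1003 ± 198 to 1995 ± 96.7 normalized counts (log2 fold change 0.99, adjusted p = 1.8e-06). SLC2A3 fell from 1483 ± 109 to 556 ± 57.4 (-1.41, adjusted p = 1.0e-09), and the change of its near-identical copy SLC2A14 (-0.78) is uncertain, since how counting assigned reads that match both is not given in the sources used here. SLC2A10 (0.95), picked after its values were seen, was the other higher transporter. G6PC2 and FBP2 had 0 counts.

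Of the enzymes that carry, attach or recycle biotin, the cofactor of PC, 8 of 8 were tested, with 2 higher, 3 lower and a median of -0.06. The acetyl-CoA carboxylases ACACA (-0.79) and ACACB (-0.73) of fatty acid synthesis and oxidation were lower, as was MCCC1 (-0.58) of leucine breakdown, whose call was lost under 9 of 17 alternatives with adjusted p-values up to 0.146, among them leaving out control replicate 2, 3, 4 or 5 or tunicamycin replicate 1, 2, 3 or 5. HLCS, which attaches biotin to PC and the other carboxylases, was higher by 0.70, and so was the propionyl-CoA carboxylase subunit PCCB (0.34), picked after its values were seen. The count of higher genes here was 1 without control replicate 1, 2, 4 or 5 or tunicamycin replicate 3, 4 or 5. In the glycogen list, 19 of 24 genes were tested, with 3 higher (as few as 1 among the alternatives), 3 lower and a median of -0.03. The phosphorylase PYGB rose (0.75). The liver phosphorylase PYGL fell (-0.42), a call lost under 1 of 17 alternatives (adjusted p = 0.105). The branching enzyme GBE1 (0.66) lost its call under 2 of 17 (adjusted p up to 0.0872), among them leaving out tunicamycin replicate 4 (0.0560). The primer protein GYG1 (0.44) lost its call under 7 of 17 (adjusted p up to 0.186). Among these were leaving out control replicate 4 or 5 or tunicamycin replicate 2, 3 or 5 (up to 0.0706). Its relative GYG2 fell (-0.53). PPP1R3C (-1.01), a phosphatase subunit that targets glycogen, was lower and was picked after its values were seen.

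Regulators of gluconeogenic genes were divided, with 9 higher and 7 lower among 36 tested of 39 and a median of -0.04. CEBPB, a transcription factor of the C/EBP family, rose from 145 ± 11.05 to 419 ± 66.5 normalized counts (log2 fold change 1.53, adjusted p = 9.5e-09). SIK1, a kinase that restrains CREB coactivators, rose from 16.2 ± 7.47 to 82.4 ± 39.0 (2.29, adjusted p = 6.7e-05), and the nuclear receptor ESRRA by 1.06 (adjusted p = 0.00121). CREB3L3, a liver transcription factor held in the ER membrane, fell from 82.3 ± 13.6 to 22.8 ± 6.04 (-1.81, adjusted p = 6.9e-07). MLXIPL, the glucose-responsive factor ChREBP, fell from 1863 ± 339 to 969 ± 240 (-0.95, adjusted p = 5.1e-05), and SIK2 fell by 0.78 on the log2 scale (adjusted p = 0.000895). CRTC2, a coactivator of CREB picked after its values were seen, had 0, 1, 3, 0 and 0 counts in control and 3, 13, 17, 40 and 39 in tunicamycin. The known activators of PCK1 and G6PC did not pass: PPARGC1A had a log2 fold change of 0.17 (adjusted p = 0.598), FOXO1 of -0.25 (adjusted p = 0.146) and HNF4A of 0.26 (adjusted p = 0.0586). The mRNA of ATF4, the factor that ER stress controls mainly through translation, stood at 3597 ± 413 and 3510 ± 449 normalized counts (adjusted p = 0.823). Of 12 genes in a list of ATF4 targets, 10 were tested, with 7 higher, 0 lower and a median of 0.79. The largest rises were those of ASNS (1.23), VLDLR (1.405) and CTH (1.82). PHGDH (0.11), SESN2 (0.004) and DDIT4 (0.09) were not called, and CHAC1 and FGF21 had 0 counts. PCK2, at 0.78, was not in that list.

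**Figure D3:**
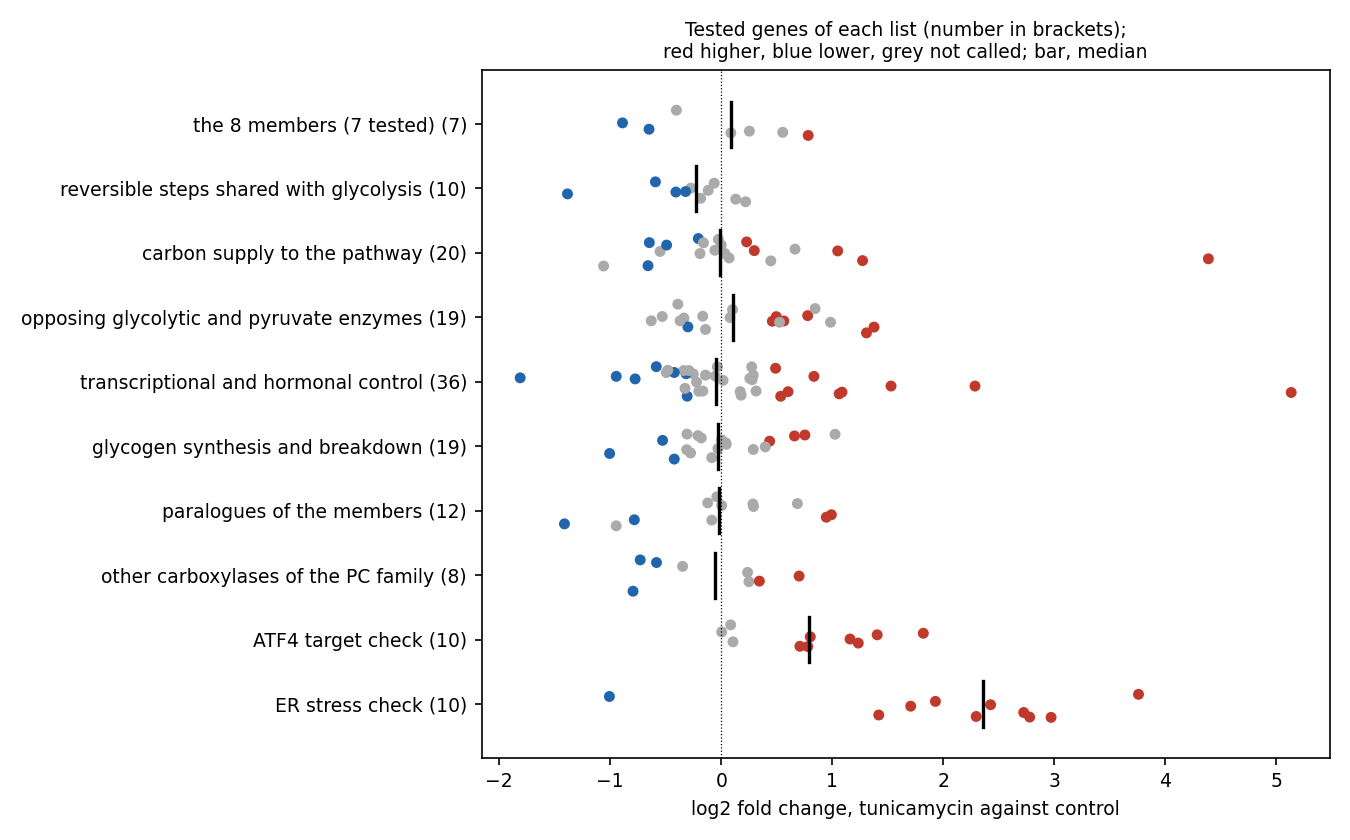
Log2 fold change (horizontal axis, tunicamycin against control) of every tested gene of each list, with red dots for genes called higher, blue for lower, grey for neither, and a black bar at the list's median. The medians of the pathway lists lie between -0.23 and 0.10, those of the ATF4 target and ER stress lists at 0.79 and 2.36, and the far dots at 5.13 and 4.39 are CRTC2 and AQP3, with 4 control counts each.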

How the data were processed

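RNA of HepG2 cells, 5 control and 5 tunicamycin libraries, was measured by QuantSeq 3′ sequencing. The authors mapped reads to hg19 with Ensembl transcript definitions in the nf-core RNA-Seq pipeline and deposited raw counts per gene, without a filter; the aligner, counter and strand setting are not given in the sources used here. All 10 columns were matched to libraries by name. Depth was 2234682 to 5029864 counts per library.

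From these counts, genes were kept with edgeR's filterByExpr (minimum count 2, minimum total 10), scaled by TMM, and tested by quasi-likelihood in edgeR 4.0.16 under R 4.3.3, with condition as the only term and Benjamini-Hochberg adjustment at 0.05 over 12733 genes. The SE is the absolute log2 fold change divided by the square root of F. Ratios used a pseudocount of 0.5 and exact permutation over 252 arrangements. The fit was tested on simulated counts with known changes. These were larger than the changes of PCK2, SLC37A4 and SLC2A2 and were not set in genes with few counts. That test therefore does not cover changes of their size, or genes as low as PCK1, FBP1 and G6PC. Alternatives were DESeq2 1.42.0, its size factors, total counts only, no filter, filterByExpr defaults (10 and 15), a replicate block, thinning to the smallest library, pseudocounts of 1 and 0.1, and leaving out each library.

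The replicate numbers pair libraries because the series' design text places the replicate experiments on separate days; deviations from group means of same-numbered libraries correlated at 0.361, 0.0153, 0.0674, 0.165 and 0.145 over 9707 genes. P-values measure the spread between these experiments in 1 cell line.

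The 8 genes and the lists were chosen with earlier results of these data known. Named genes are the 8 members and, per list, up to 3 higher and 3 lower with the largest changes among those called, with a mean of 20 or more normalized counts and 1 direction in 5 of 5 pairs. Positions come from GENCODE on GRCh38, matched by Ensembl identifier, and promoter sequences from RefSeq on GRCh38.p14; no coordinate of hg19 is given. Values of a few listed genes are left out.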

Additional observations from a re-analysis of the deposited data

Results flagged for a closer look

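Of 24 groups of 5 libraries examined for a single library far from the rest, 1 stood out, where chance would give about 1.2. It was G6PC in tunicamycin, where replicate 2 had 1.98 normalized counts, from 2 reads, and the other 4 libraries had 0. Its control libraries all had 0.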

How the results depend on the processing

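Calls on PC, PCK1, PCK2, SLC37A4, G6PC3 and SLC2A2 kept their direction and their side of the threshold under every alternative that gave a value, 17 for each except 14 for PCK1; FBP1 gave 16. PCK1 and FBP1 gave none where a filter removed them or DESeq2 set no adjusted p. The log2 fold change of FBP1 ranged from -0.20 to 0.52 when single libraries were left out and turned negative without control replicate 5 (-0.03) or tunicamycin replicate 5 (-0.20), and the log2 ratio of PCK2 to PCK1 from -0.08 to 0.41, turning without control replicate 1 (-0.037) or tunicamycin replicate 1 (-0.085); the cause was not tested, but both rest on 10 to 16 counts per condition. With the replicate block, the difference of 1.15 in the log2 ratio of PCK2 to PC had p = 0.0625 by exact sign flips, the smallest that 5 pairs allow, adjusted 0.188; the block changed no other call on the 8 genes or the 3 ratios. PC came nearest to the threshold without tunicamycin replicate 5 (adjusted p = 0.0698 in edgeR) and had -0.15 (adjusted p = 0.759) after thinning. G6PC was tested only with no filter (adjusted p = 0.267 in edgeR). Genes called in all numbered 3205 (thinned) to 4811 (block), against 4353. With scaling by total counts only, 40.8% of called genes were higher, against 51.4%, and the median of all genes moved by -0.08, while PCK2 stayed at 0.70 or above, and SLC37A4 and SLC2A2 stayed called lower. Thinning left 1 lower gene among the enzymes shared with glycolysis (4 at full depth), 2 higher among carbon supply (5), and 0 higher and 1 lower among the biotin enzymes (2 and 3). Scaling by total counts only left 3 higher among carbon supply and gave 3 lower among the opposing enzymes (1). Depth limits PCK1, FBP1 and G6PC, at 0 to 5 counts per library.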
